A study of Mus musculus with 9 samples.

Results

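Tes (testin), 4 LIM proteins of the zyxin family (Zyx, Lpp, Trip6 and Limd1), paxillin (Pxn) and the 3 Ena/VASP proteins (Enah, Vasp and Evl) were followed in whole NB9464 tumors by RNA-seq. The 9 genes were taken by their symbols from a table of 54429 symbols, and all 9 had enough counts to be tested among 15931 genes. Tes was included because it was much higher after radiation in these same tumors, so its values against radiation are a description and carry no test. The other 8 genes were chosen as proteins that sit beside Tes at adhesions and actin fibers, and they were tested.

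LIM domains are zinc-binding folds that dock proteins to each other. Zyxin, LPP, TRIP6 and LIMD1 each carry a row of them at the C-terminus and move between focal adhesions, stress fibers and the nucleus, while paxillin is a LIM scaffold of the focal adhesion itself. The Ena/VASP proteins promote the elongation of actin filaments at adhesions and at the leading edge, and zyxin recruits them there through short proline-rich motifs. Testin binds zyxin and the Ena/VASP protein Mena (the product of Enah), and Tes is known as a candidate tumor suppressor gene.

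NB9464 is a mouse neuroblastoma line driven by MYCN, and its cells had been placed under the skin of wild-type C57BL/6 mice of 4 to 6 weeks and grown to 250 mm3 before treatment. There were 3 groups of 3 tumors. The vehicle group received the vehicle alone, the drug group (label R788 + anti-PDL1) received both drugs, and the irradiated group (label Rad + R788 + anti-PDL1) received both drugs and radiation. R788, which blocks the kinase Syk, was given at 50 mg/kg, anti-PDL1 (clone 10F.9G2) is an antibody against the checkpoint ligand, and radiation was 10 Gy. R788 was recorded as given 5 times a week and anti-PDL1 4 times a week. The series text gives 4 doses between day 28 and day 37 and does not say which agents they cover. How these schedules fit together is not stated. All irradiated tumors also received both drugs, and radiation alone was not analysed here. The labels give the 3 tumors of a group as separate samples, but do not say that each came from its own mouse, so p-values measure the spread between these samples.

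Total counts were 18276683 to 23397886 per library. The first irradiated library stood apart. Its log2 values correlated with those of the other 8 at r of 0.86 to 0.91 across genes, its mitochondrial share was 1.97% against 3.48% to 5.71%, and long transcripts were low in it. Of the neuroblast markers, Th was at 0 counts in all 9 libraries and Dbh reached 1 count, whereas Hand2 had 6545 to 12901 counts and Ddc 90 to 356. Th and Dbh, enzymes of catecholamine synthesis that mark the labelled neuroblastoma, were thus absent or nearly so, and Hand2 and Ddc were present. These are whole tumors, in which fewer cells of a type and less RNA per cell cannot be told apart.

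Upstream sequences of 3 of the genes are shown first, since the report turns on them. Tes is the gene that stood apart, Vasp is, with Trip6, a member whose drug-group tumors lay below both other groups, and Evl is the member whose levels were most like those of Tes. Each is the 250 bases before the RefSeq start (build GRCm38.p6), read 5′ to 3′ along the gene. Capitals mark GGGCGG (the GC box), the CCAAT box, and GGAATG, a pattern of letters bound by TEAD factors, each on either strand.
Tes, chr6:17064899-17065148, plus strand: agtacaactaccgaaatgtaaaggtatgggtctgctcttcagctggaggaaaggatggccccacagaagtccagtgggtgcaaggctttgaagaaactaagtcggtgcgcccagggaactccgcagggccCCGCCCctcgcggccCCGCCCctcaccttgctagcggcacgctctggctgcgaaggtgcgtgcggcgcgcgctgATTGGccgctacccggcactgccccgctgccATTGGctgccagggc
Vasp, chr7:19271855-19272104, minus strand: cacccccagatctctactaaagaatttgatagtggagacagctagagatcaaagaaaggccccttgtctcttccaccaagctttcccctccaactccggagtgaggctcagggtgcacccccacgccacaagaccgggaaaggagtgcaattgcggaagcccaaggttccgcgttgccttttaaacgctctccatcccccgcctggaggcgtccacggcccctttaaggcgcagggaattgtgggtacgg
Evl, chr12:108554470-108554719, plus strand: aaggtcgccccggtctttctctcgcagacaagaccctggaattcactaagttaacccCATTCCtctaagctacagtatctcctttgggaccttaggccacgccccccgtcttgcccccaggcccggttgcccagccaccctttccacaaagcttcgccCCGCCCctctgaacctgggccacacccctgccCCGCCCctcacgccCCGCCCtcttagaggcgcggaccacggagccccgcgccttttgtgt

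Motifs were searched on both strands in windows from 250 bases before to 50 bases after each start, of which 9 belonged to 7 of the genes. The Tes window held 2 GC boxes and 2 CCAAT boxes, the latter at 46 to 42 and 15 to 11 bases before the start. The first Evl window held 3 GC boxes and 2 matches to GGAATG, 1 of them past the start and outside the printed run, and the Vasp window held none of the patterns searched. No 2 of the capital runs shown above overlap. GGAATG was in 4 of the 9 windows. In that of Trip6 a CCAAT box overlaps the CArG box. Over 32851 windows of the same length, the GC box was found in 35.7%, the CCAAT box in 37.4% and GGAATG in 14.7%. TGANTCA, the AP-1 pattern, was in 7.81% of windows and in the window of Zyx, and CACGTG, the E-box, was in 7.15% and in that of Trip6. The CArG box, bound by SRF, was in 1.63% and among these genes only in the window of Trip6. The Tes window had 64.7% G and C and 24 CpG, against medians of 52.7% and 7 over all windows. These matches describe letters and not binding.

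Tes (ENSMUSG00000029552.19, GRCm38 chromosome 6, 17065149 to 17105828, plus strand) was the lowest of the 9 genes in vehicle tumors. Its level was 3.37, 2.65 and 2.68 CPM (counts scaled to the size of the library, after TMM normalization) in the 3 vehicle tumors, from 61, 59 and 49 counts. In the drug group it was 7.31, 4.43 and 6.75 CPM, and in the irradiated group 38.8, 37.6 and 40.2 CPM, from 527, 741 and 881 counts. The 3 groups did not overlap at any tumor. The coefficient of variation was 3.37% in irradiated, 14.0% in vehicle and 24.8% in drug tumors. That of irradiated tumors depends on the scaling, with TMM factors of 0.743, 1.04 and 1.07 for irradiated replicates 1, 2 and 3. Counting error enters all 3 groups and is larger at the lower counts of vehicle and drug tumors. The parts of scaling and counting error in these values were not tested.

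**Figure D1:**
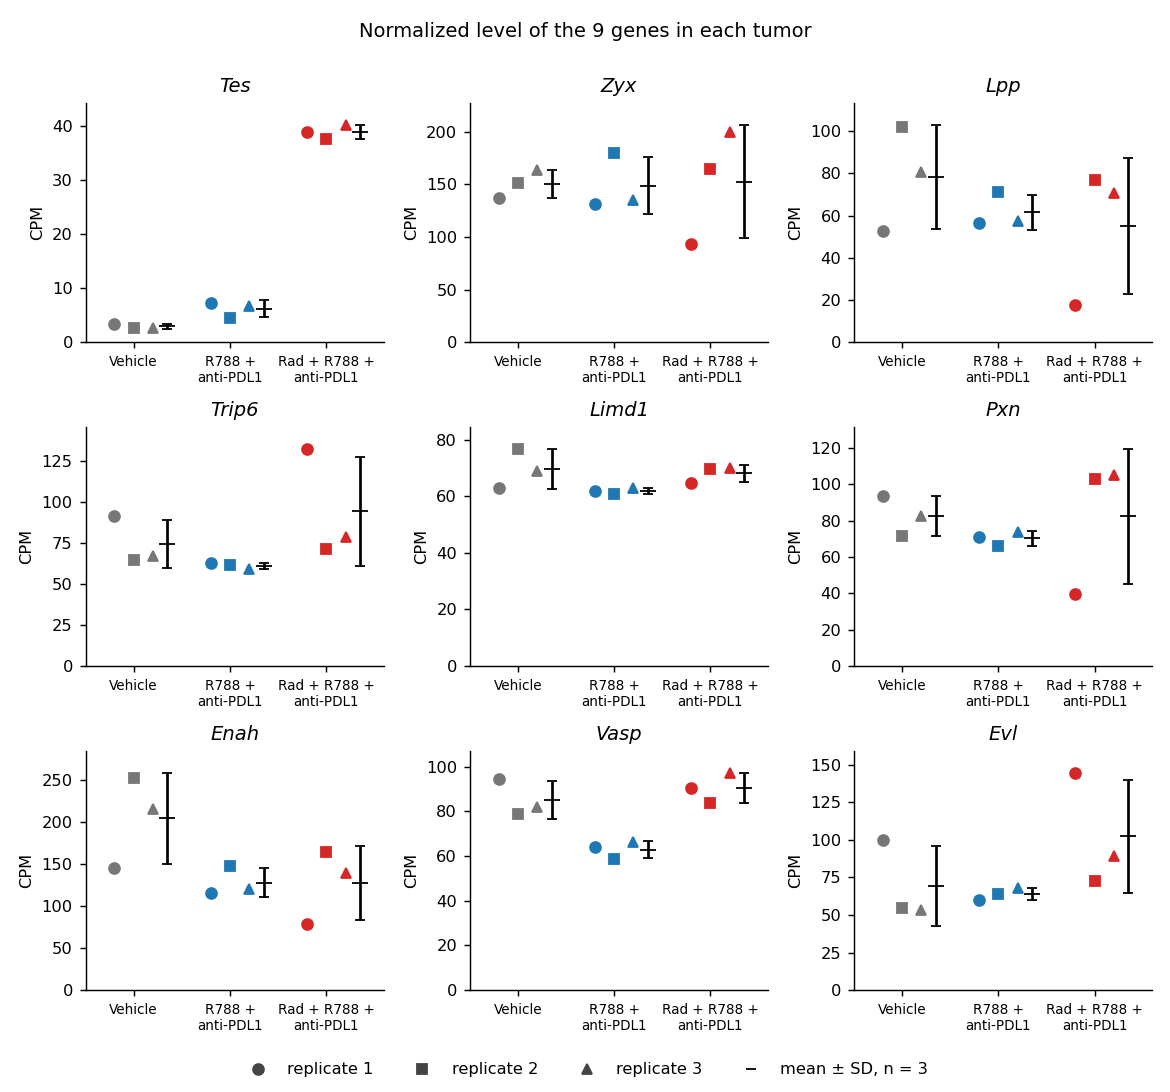
Level in CPM (y axis, from 0) of the 9 genes in the 3 groups, 1 point per tumor, with mean ± SD (n = 3) at the right of each group. For Tes the irradiated tumors lie between 37.6 and 40.2 CPM, while for the other 8 genes irradiated and vehicle tumors overlap.

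Mean Tes levels were 2.90 ± 0.405, 6.16 ± 1.53 and 38.9 ± 1.31 CPM (SD, n = 3) in the vehicle, drug and irradiated groups. The ratio of mean CPM was 13.4 for irradiated against vehicle and 6.30 for irradiated against drug tumors, and the fitted log2 fold changes were 3.74 and 2.66. By log2 fold change Tes was 80th and 87th from the top of the 15931 genes in these comparisons, which is a description because Tes was chosen on them. Leaving out the first irradiated library changed them to 3.77 and 2.67. For the drug group against vehicle, the ratio was 2.13 and the log2 fold change 1.09 ± 0.25 (SE). The choice of Tes did not use this comparison, but the comparisons it used hold both of these groups. The p-values of this comparison are thus not independent of the choice of Tes. There Tes missed the threshold of 0.05 with edgeR's quasi-likelihood test (adjusted p = 0.0955, range over 11 alternatives 0.00630 to 0.397) and passed it with DESeq2 alone (adjusted p = 0.00630). Exons of Tes overlap those of Gm4876 on the other strand, which had 0 counts in vehicle, up to 4 in drug and 1 to 22 in irradiated tumors. Whether the libraries keep strand is not given in the sources used here, and the part of Gm4876 in the Tes values was not tested.

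Per kilobase of exon union, Tes moved up in the order of the 9 genes. Mean levels in vehicle tumors were 32.5 ± 3.24 CPM per kb for Vasp, 30.7 ± 6.02 for Trip6, 27.9 ± 2.48 for Zyx and 23.6 ± 9.04 for Evl, whose ranges overlapped from each to the next. Limd1 (11.6 ± 1.16), Pxn (10.1 ± 1.34) and Enah (9.51 ± 2.54 CPM per kb) formed a lower step with overlapping neighbours, followed by Lpp at 3.56 ± 1.12 and Tes at 0.424 ± 0.0592, each apart from its neighbour. In irradiated tumors Tes stood at 5.68 ± 0.192 CPM per kb, above all 3 values of Lpp (2.50 ± 1.47) and within the range of Enah (5.93 ± 2.06). Among 15821 tested genes with a single identifier, the Tes level per kb exceeded 17.1% in vehicle, 23.3% in drug and 55.5% in irradiated tumors. For Zyx that share was 88.0%, 89.6% and 87.2%, so that the zyxin level per kb kept its place while that of Tes moved to the middle.

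**Figure D2:**
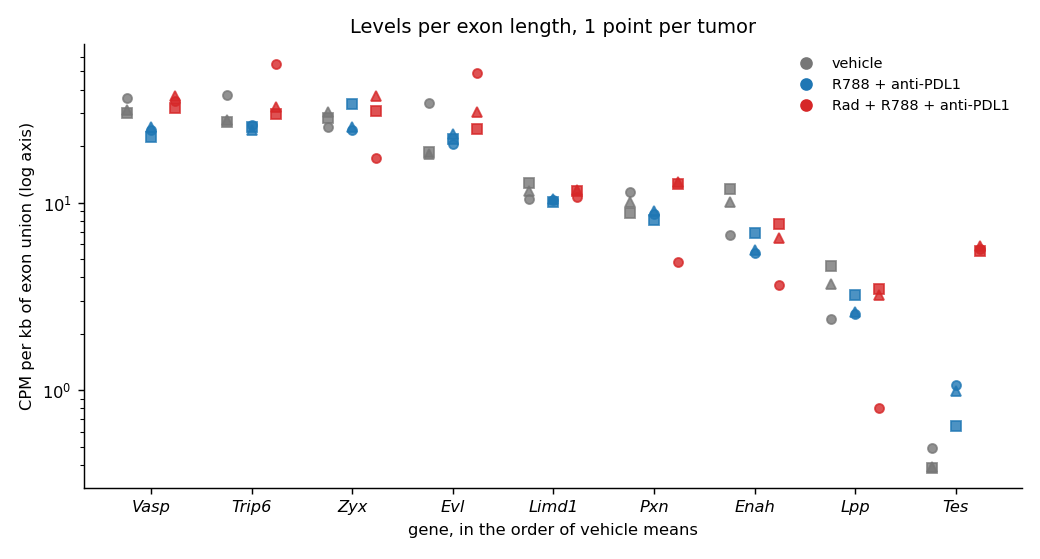
Level in CPM per kb of exon union (y axis, log scale) of the 9 genes, ordered by vehicle mean, 1 point per tumor, with circles, squares and triangles for replicates 1, 2 and 3. Tes is last in vehicle tumors at 0.424 CPM per kb on average and reaches 5.68 in irradiated tumors, beside Enah.

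None of the other 8 genes passed the test in any of the 3 comparisons over all 9 libraries, with edgeR or with DESeq2. Pxn passed with DESeq2 for irradiated against drug tumors once the first irradiated library was left out. That fit called 665 genes, beside 644 (4.02%) with all libraries. For the drug group against vehicle, edgeR called 0.678% of all genes, and for irradiated against vehicle and against drug tumors 0.0439% and 0.00628%. Both shares with irradiated tumors include Tes, which was chosen on those contrasts, so its place in them carries no test. At an unadjusted p under 0.05 there were 2, 1 and 2 of the 8 genes in these comparisons, beside 11.7%, 13.2% and 18.4% of all genes. DESeq2 called 4.02%, 3.16% and 4.02% of the genes it tested. The lowest adjusted p among the 8 with edgeR was 0.342, 0.376 and 0.222, and their median log2 fold change was -0.26, 0.01 and 0.19, against -0.02, 0.05 and 0.04 over all genes tested.

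**Figure D3:**
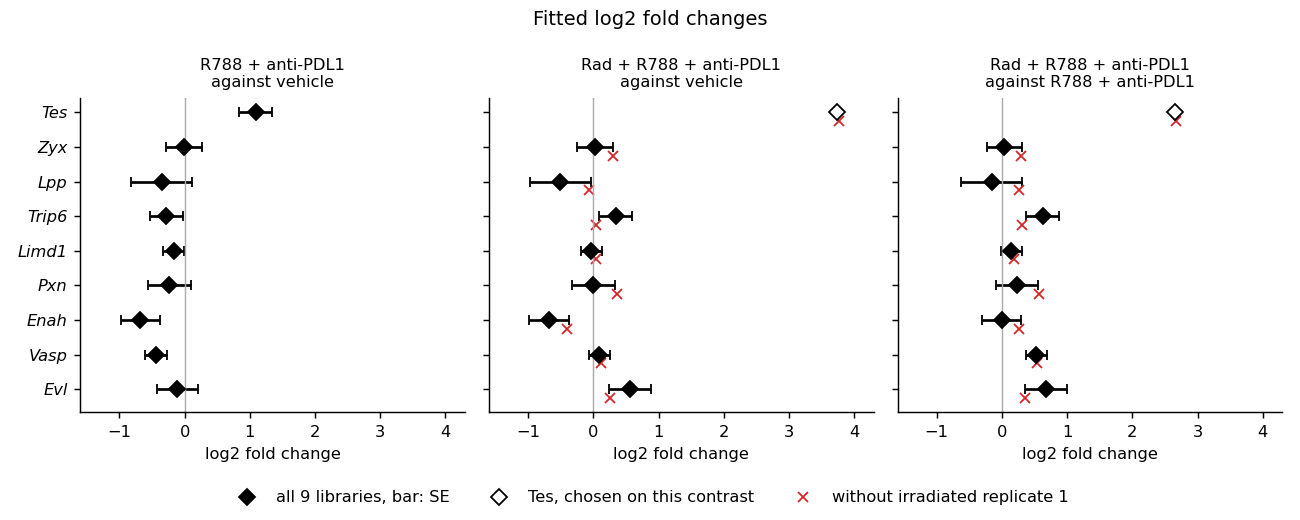
Fitted log2 fold change (x axis) of the 9 genes in the 3 comparisons, with SE bars, open diamonds for Tes where it was chosen on the contrast, and crosses for the fit without irradiated replicate 1. The other 8 genes lie between -0.68 and 0.68, and those of Zyx, Lpp, Trip6, Pxn, Enah and Evl shift more without that library than those of Limd1, Vasp and Tes (3.74 and 2.66 with all libraries).

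In the zyxin family, Zyx (ENSMUSG00000029860.16, chromosome 6, 42349630 to 42360213), the founding member, had 137, 151 and 163 CPM in vehicle tumors. It had 131, 180 and 136 CPM in drug tumors and 93.6, 165 and 200 CPM in irradiated tumors. All 3 groups overlapped, and the group means of 150, 149 and 153 CPM differed by less than 1 SD of any group (log2 fold changes -0.01 ± 0.27, 0.02 ± 0.27 and 0.04 ± 0.27). Their sign turned under several alternatives. Exons of Zyx overlap those of Epha1 on the other strand, which had 4 to 226 counts.

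Lpp (ENSMUSG00000033306.15, chromosome 16, 24393507 to 24992578), a zyxin relative of cell contacts, had 52.6, 102 and 80.8 CPM in vehicle and 56.3, 71.1 and 57.3 CPM in drug tumors. It had 17.8, 76.8 and 70.6 CPM in irradiated tumors, so that the first library alone was far below the rest. The fitted log2 fold change was -0.51 ± 0.47 for irradiated against vehicle and -0.06 ± 0.24 without that library. Against drug tumors its sign turned, from -0.16 ± 0.47 to 0.26 ± 0.24. Exons of Lpp overlap those of Lppos on the other strand, which had 19 to 56 counts.

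Trip6 (ENSMUSG00000023348.11, chromosome 5, 137309654 to 137314404, minus strand), which also binds receptors of lysophosphatidic acid, had 91.4, 65.0 and 67.2 CPM in vehicle tumors. Drug tumors had 63.1, 61.4 and 59.4 CPM, all below vehicle, and irradiated tumors had 133, 71.7 and 78.9 CPM, all above drug tumors, so that drug tumors were the lowest, as for Vasp. The difference between irradiated and drug tumors had a log2 fold change of 0.62 ± 0.26 (adjusted p = 0.254) and of 0.30 ± 0.17 without the first irradiated library, by edgeR. Limd1 (ENSMUSG00000025239.3, chromosome 9, 123478706 to 123521552), a scaffold linked to the Hippo pathway and to microRNA silencing, had the smallest SEs of the 9 genes. Its levels were 62.9, 76.9 and 69.1 CPM in vehicle, 61.8, 60.7 and 63.0 in drug and 64.7, 69.8 and 70.0 in irradiated tumors, with log2 fold changes of -0.17 ± 0.16, -0.03 ± 0.16 and 0.14 ± 0.16.

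Pxn (ENSMUSG00000029528.18, chromosome 5, 115506676 to 115555987) had 93.7, 71.8 and 82.4 CPM in vehicle and 70.9, 66.0 and 73.9 CPM in drug tumors. In irradiated tumors it had 39.6, 103 and 105 CPM, so that the first library was the lowest of all 9 and the other two were the highest. With all libraries the log2 fold change against drug tumors was 0.23 ± 0.33. Without that library it was 0.57 ± 0.14, which edgeR did not call (adjusted p = 0.128) and DESeq2, in an analysis added after the data were seen, called (log2 fold change 0.56, adjusted p = 0.0375). The same DESeq2 fit called 665 genes in this comparison.

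Of the Ena/VASP genes, Vasp (ENSMUSG00000030403.9, chromosome 7, 19256929 to 19271817, minus strand), a substrate of cyclic nucleotide kinases, had 94.6, 78.6 and 81.8 CPM in vehicle tumors. Drug tumors had 63.8, 58.6 and 66.1 CPM and irradiated tumors 90.5, 83.9 and 97.3 CPM. The drug tumors lay below every other tumor. The log2 fold change was -0.43 ± 0.17 for drug against vehicle (adjusted p = 0.342) and 0.53 ± 0.17 for irradiated against drug tumors (adjusted p = 0.222) with edgeR, and the 2 comparisons share the drug tumors. Irradiated against vehicle gave 0.09 ± 0.17. In the drug group the summed level of 6 neutrophil markers was also below vehicle, at 1.76 to 3.19 against at least 4.14 CPM, with 2.36 to 16.1 in irradiated tumors and the defining marker Ly6g at 0 in all 9. Drug tumors were above vehicle for the markers of 2 other cell types, macrophages (636 to 672 against 298 to 613 CPM) and T cells (7 markers, 4.35 to 23.7 against 1.81 to 4.19 CPM), and irradiated tumors had 1.84 to 34.5 CPM of the T cell markers. The part of these cell types in the Vasp values was not tested.

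Enah (ENSMUSG00000022995.16, chromosome 1, 181896384 to 182019990, minus strand), the Ena/VASP protein that testin binds, had 145, 252 and 215 CPM in vehicle tumors. Drug tumors had 116, 147 and 120 CPM and irradiated tumors 78.3, 164 and 139 CPM. The lowest vehicle tumor lay below the highest of either treated group. Drug tumors differed from vehicle by -0.68 ± 0.30 (adjusted p = 0.426) and irradiated tumors by -0.68 ± 0.30 (adjusted p = 0.376), both with edgeR and with the vehicle tumors in common. Without the first irradiated library the latter was -0.40 ± 0.22.

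Evl (ENSMUSG00000021262.15, chromosome 12, 108554720 to 108688516), the member best known from blood cells, had 100, 54.5 and 53.6 CPM in vehicle tumors. It had 60.2, 64.2 and 68.0 CPM in drug tumors and 145, 72.9 and 89.6 CPM in irradiated tumors. All irradiated tumors were above all drug tumors (log2 fold change 0.68 ± 0.32, edgeR adjusted p = 0.282), and without the first irradiated library the difference was 0.35 ± 0.27. Exons of Evl overlap those of Degs2 on the other strand, which had at most 16 counts.

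Counted by tumors, the drug and vehicle groups did not overlap for 3 of the 9 genes, Tes higher and Trip6 and Vasp lower, beside 30.1% of all genes tested (13.6% higher and 16.6% lower). Tes, chosen on radiation, is left out of the next counts. Irradiated and vehicle tumors overlapped for all of the other 8 genes, beside 20.5% of all genes that did not overlap (9.26% higher). Irradiated tumors lay above drug tumors for 4 of the 8, Trip6, Limd1, Vasp and Evl, while 27.4% of all genes did not overlap in one direction or the other and 14.3% were higher. The share of 3 in 9 for drug against vehicle is near the background, and Tes in it was chosen on comparisons that hold both groups.

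For 6 of the other 8 genes the first irradiated library stood away from the other irradiated libraries, and for Limd1 and Vasp it lay near them. Across genes tested, the median deviation of that library from the mean of the other 8 was 0.79 over the 3956 with the shortest transcripts (up to 2040 bp) and -0.80 over the 3955 with the longest (from 4634 bp), on the log2 scale. The longest minus the shortest, -1.59, was -0.23 in the first vehicle library and 0.08 to 0.39 in the other 7. Set against the mean of the other irradiated libraries, the first differed by -2.04 on the log2 scale for Lpp (longest transcript 15459 bp), by -1.39 for Pxn (3761 bp), and by -0.95 for both Zyx (3188 bp) and Enah (11229 bp). The difference was 0.82 for Trip6 (2168 bp) and 0.84 for Evl (2180 bp). It was -0.11 for Limd1 (4848 bp), and for Tes (3790 bp) and Vasp (2215 bp) it was 0.00 at this precision. The part of transcript length in these values was not tested. Lpp, Zyx and Pxn lay below the middle 50% of genes near their length, Evl lay just above it, and Tes, Trip6, Limd1, Enah and Vasp lay within it.

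**Figure D4:**
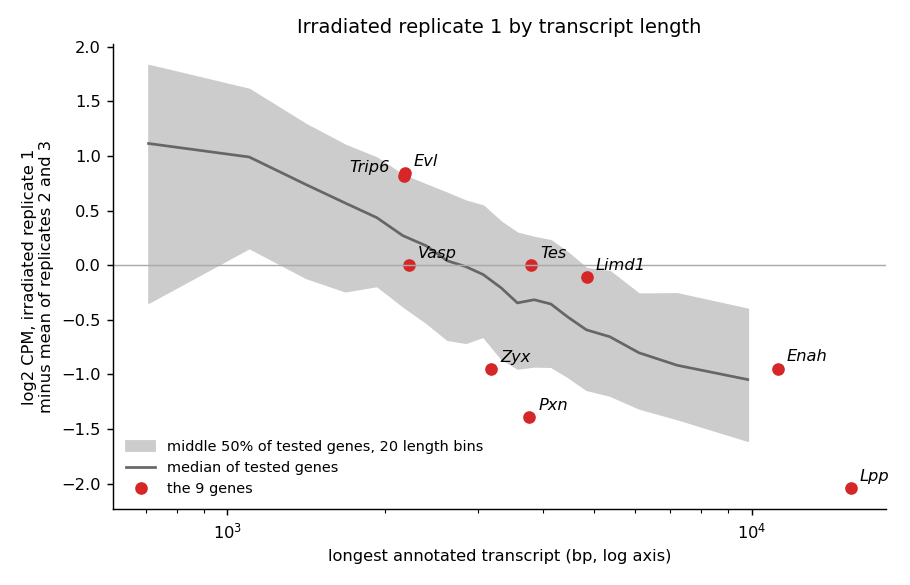
Difference in log2 CPM between irradiated replicate 1 and the mean of replicates 2 and 3 (y axis) against the longest annotated transcript in bp (x axis, log scale), with the median and middle 50% of tested genes in 20 length bins and the 9 genes as points. The line falls from 1.11 in the shortest bin to -1.05 in the longest, and Tes lies at 0.

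Over the 9 libraries, Pearson correlations of log2 levels were highest for Trip6 with Evl (0.93), Lpp with Enah (0.88) and Zyx with Lpp (0.83), and lowest for Lpp with Evl (-0.84). These points share the irradiated library described above, and the pairs with the highest values join genes that were high or low together in it. The member most like Tes was Evl (0.62), and the least like was Enah (-0.57). Among 13467 named genes, those most like Tes were Kcnn4, a calcium-activated potassium channel (0.97), Traf1, an adaptor of TNF receptors (0.96), and Iyd, a thyroid deiodinase (0.95). Lce1m, Ush1g, Slc25a34, Rhcg, Gramd1b, Vim and Klhl33 followed at 0.93 to 0.94. Vim, the intermediate filament of mesenchymal cells, had 308 to 403 CPM in vehicle, 499 to 568 in drug and 834 to 1482 in irradiated tumors, with no overlap between groups. Kcnn4 had 8.88 to 9.88, 11.4 to 11.7 and 18.9 to 26.4 CPM in the same order. Both genes were picked for their likeness to Tes over these same libraries. Their separation by group follows in part from that choice and is a description. Lce1m and Rhcg were at 0 in all 6 tumors that were not irradiated, so their r has no value there and they could not be ranked. When the irradiated tumors were left out, none of the 10 was among the 10 genes most like Tes, and the highest r of the 10 over those 6 libraries was 0.94, for both Vim and Kcnn4. By that r Vim was 189th and Kcnn4 204th of 13467 genes, and the others that could be ranked were 987th to 2746th.

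As shares of the summed level per kb of 7 zyxin family genes (with Ajuba, Wtip and Fblim1 added), Zyx made up 23.4% ± 2.76 in vehicle and 30.2% ± 2.16 in drug tumors, and Wtip 20.9% ± 2.43 and 14.3% ± 1.45 (SD, n = 3). The share of Zyx was higher and that of Wtip lower in each of the 3 drug tumors than in all vehicle tumors. The mean level of Zyx was 150 CPM in vehicle and 149 CPM in drug tumors, and that of Wtip 59.2 and 31.3 CPM. Shares of 1 sum depend on each other. By the exact two-sided permutation test of 3 tumors against 3, which cannot go below 0.1, 4 of 30 shares reached p = 0.1, and the lowest Benjamini-Hochberg adjusted p was 0.6. Of the Ena/VASP sum, Vasp made up 49.8% ± 2.75, Evl 35.2% ± 7.83 and Enah 15.0% ± 5.59 in vehicle tumors. In irradiated tumors these shares were 46.5% ± 6.02, 45.3% ± 9.65 and 8.26% ± 3.87, with p of at least 0.2 in the exact permutation test.

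Downstream of Tes, the tested genes as far as Met were higher in treated tumors and those beyond it were not called. Of 8 protein-coding genes with a start within 1 Mb, 7 were tested, Tes included. Cav2 and Cav1, the caveolin genes 216 and 241 kb downstream, and Met, the receptor of hepatocyte growth factor 399 kb downstream, rose in both treated groups against vehicle. Against vehicle the log2 fold changes of Cav2 were 1.99 ± 0.29 in drug and 3.29 ± 0.30 in irradiated tumors (edgeR adjusted p = 0.0383 and 0.00835). Those of Cav1 were 1.82 ± 0.31 and 3.28 ± 0.32 (adjusted p = 0.0397 and 0.0107), and those of Met were 3.63 ± 0.65 and 6.01 ± 0.70 (adjusted p = 0.0450 and 0.0276).

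By tumor, Cav1 had 5.02, 4.35 and 6.41 CPM in vehicle, 16.4, 20.8 and 18.3 CPM in drug and 30.9, 67.3 and 54.6 CPM in irradiated tumors. Met had 0.110, 0.359 and 0.821 CPM in vehicle, from 2, 8 and 15 counts. It had 7.66, 2.17 and 6.30 CPM in drug and 21.7, 32.0 and 30.0 CPM in irradiated tumors, so that the 3 groups did not overlap for either gene. Irradiated tumors were above drug tumors by 1.30 ± 0.28 for Cav2, 1.46 ± 0.30 for Cav1 and 2.38 ± 0.56 for Met, none of which edgeR called (adjusted p = 0.156, 0.136 and 0.179). DESeq2 called all 3 there, and edgeR called Cav2 and Cav1 without the first irradiated library (adjusted p = 0.0489 and 0.0186).

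Farther out, Capza2 (571 kb downstream), a subunit of the actin capping protein, had log2 fold changes of 0.06 ± 0.18 and -0.12 ± 0.18 against vehicle in drug and irradiated tumors, and St7 (628 kb) had -0.19 ± 0.26 and 0.21 ± 0.26. On the other side Tfec, a transcription factor of the MITF family at -167 kb, gave 0.82 ± 0.66 and 1.17 ± 0.67 from 8 to 64 counts, and Wnt2 (965 kb) was at 0 in all vehicle and irradiated tumors. The calls of Cav2, Cav1 and Met for drug against vehicle held in 4, 4 and 5 of 11 alternatives. Without a single library, Cav2 and Cav1 were called in none of 6 cases, and Met only without drug replicate 2 (adjusted p up to 0.217, 0.217 and 0.227). Against vehicle in irradiated tumors, calls held in 9, 9 and 6 of 12 alternatives. Cav2 and Cav1 lost them without vehicle replicate 2 (adjusted p = 0.0878 and 0.123) or 3 (0.0677 for both), and Met without these (0.307 and 0.0677) and without irradiated replicate 2 or 3 (0.0817 and 0.0602). All 3 also lost them with only the 6 libraries compared (0.0891), and Met with the replicate block (0.105).

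**Figure D5:**
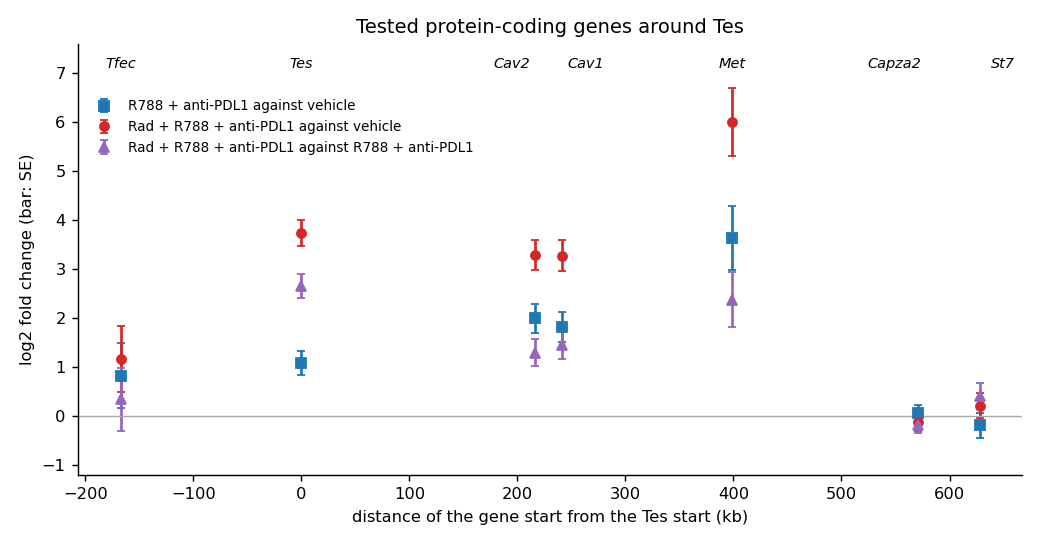
Log2 fold change with SE (y axis) of the 7 tested protein-coding genes within 1 Mb of Tes against the distance of their starts in kb (x axis), for the 3 comparisons. Cav2, Cav1 and Met lie above 0 in each, as does Tes, which was chosen on the radiation contrasts, while Capza2 and St7 lie near 0.

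Cell type markers were read beside Tes as summed CPM. Over 13 lists, none had irradiated tumors apart from all 6 other tumors. Tes was chosen for its level in irradiated tumors and the lists were not, so this count is a description. Irradiated tumors lay above vehicle for 3 lists. Endothelial markers (8) had 58.7 to 67.9 against 38.9 to 50.3 CPM, with 47.1 to 132 in drug tumors. Keratinocyte markers (6) had 47.3 to 75.7 against 7.94 to 8.60 CPM, with 2.16 to 64.0 in drug tumors. That sum was carried by Krt5, with 68 to 136 counts in vehicle, 43 to 1652 in drug and 1017 to 1066 in irradiated tumors. Krt14 went the other way, with 4 to 43, 0 and 0 to 2 counts in that order. Trp63 had 4 to 79, 6 to 24 and 8 to 20 counts and did not rise. Krt10 had at most 10 counts, Krt1 at most 1 and Dsc3 none in any tumor. The 11 neuroblast markers had 485 to 887 against 339 to 465 CPM, with 442 to 498 in drug tumors, a sum made up almost wholly of Hand2. Ddc went the other way, with 99 to 185 counts in irradiated and 289 to 356 in vehicle tumors. Fibroblast markers (8) had 2712 to 5185, 3145 to 4003 and 2983 to 5544 CPM in irradiated, vehicle and drug tumors, and macrophage markers (9) had 320 to 1756, 298 to 613 and 636 to 672 CPM. The part of these cell types in the Tes values was not tested.

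Other LIM proteins of adhesions and actin fibers were listed as 26 genes, all tested. None was called in any comparison, and 5, 3 and 5 had an unadjusted p under 0.05 for drug against vehicle, irradiated against vehicle and irradiated against drug tumors (shares of 11.7%, 13.2% and 18.4% in all genes). DESeq2 called Wtip in the first and Csrp2 in the last, beside 4.02% of all genes it tested in each. Their medians of 0.03, -0.06 and 0.07 were near those of all genes, and the last 2 were 0.05 and 0.10 without the first irradiated library. Wtip and Ajuba, zyxin family scaffolds of cell junctions, had -0.92 ± 0.24 and -0.89 ± 0.28 in drug tumors against vehicle (edgeR adjusted p = 0.136 and 0.220). Wtip had 53.8, 63.1 and 60.8 CPM in vehicle, 25.6, 37.5 and 30.8 CPM in drug and 68.4, 49.1 and 40.2 CPM in irradiated tumors. Csrp2, a LIM protein of muscle, had 670 CPM in the first irradiated tumor and 312 and 283 in the others, against 193, 145 and 174 in drug tumors (1.30 ± 0.32, adjusted p = 0.184). Prickle1, like Tes a PET and LIM protein, had -0.42 ± 0.19 and -0.59 ± 0.19 against vehicle (adjusted p = 0.422 and 0.278). Lmcd1, another of that kind, had 0.276, 0.135 and 0.0548 CPM in vehicle, 0.352, 1.37 and 0.737 in drug and 0.958, 0.507 and 0.593 in irradiated tumors. Each treated group lay above vehicle, from 1 to 36 counts, with 2.37 ± 0.76 and 2.10 ± 0.77 on the log2 scale (edgeR adjusted p = 0.242 and 0.328).

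Among 31 tested focal adhesion genes, none was called in any comparison. At an unadjusted p under 0.05 there were 4, 7 and 7, beside 11.7%, 13.2% and 18.4% of all genes. DESeq2 called Src and Arhgef7 lower in drug tumors and Ptk2b higher in irradiated tumors, both against vehicle. It called 4.02% and 3.16% of all genes it tested in these comparisons. Their medians were -0.10, -0.09 and 0.03, and without the first irradiated library the last 2 became 0.15 and 0.15, a change of sign against vehicle. The main adhesion adaptors Vcl, Tln1 and Actn1 had means of 56.2, 331 and 144 CPM in vehicle and 49.0, 335 and 126 CPM in irradiated tumors, and all 3 were lowest in the first irradiated library (6.78, 149 and 65.4 CPM). Arhgef7, a Rac and Cdc42 exchange factor, had 648, 413 and 463 CPM in vehicle and 230, 108 and 201 in drug tumors (-1.50 ± 0.40, edgeR adjusted p = 0.147, DESeq2 0.0124). Ptk2b, a kinase related to focal adhesion kinase, had 9.82, 5.43 and 5.48 CPM in vehicle and 10.8, 14.7 and 18.2 CPM in irradiated tumors (1.08 ± 0.32, edgeR adjusted p = 0.265, DESeq2 0.0430).

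Partners of the Ena/VASP proteins (19 tested of 21) gave no call with either tool. Of them, 1, 3 and 2 had an unadjusted p under 0.05, beside 11.7%, 13.2% and 18.4% of all genes. Their medians were -0.09, -0.12 and -0.18, and without the first irradiated library the last 2 became 0.04 and -0.03. Pfn1, profilin, which feeds actin to these proteins, had 433, 327 and 509 CPM on average in vehicle, drug and irradiated tumors, the order seen for Vasp. Capzb, of the capping protein that Ena/VASP proteins oppose, had 264, 195 and 318 CPM in that order. For irradiated against drug tumors the log2 fold changes were 0.64 ± 0.23 and 0.70 ± 0.20 (edgeR adjusted p = 0.229 and 0.216). Raph1 (lamellipodin) and Apbb1ip (RIAM) bind Ena/VASP proteins at the leading edge. Their means were 31.9 and 34.2 CPM in vehicle, 43.8 and 39.5 CPM in drug and 23.7 and 37.2 CPM in irradiated tumors. For both, every drug tumor lay above all vehicle tumors, which is not the order seen for Vasp. The first irradiated library was the lowest for both, with 8.62 CPM of Raph1 against 30.8 and 31.8 in the others and 26.7 CPM of Apbb1ip against 41.2 and 43.6. Without it the log2 fold change of Raph1 against vehicle went from -0.42 to 0.00. Actl7a, a partner of testin in sperm, had at most 4 counts and was not tested.

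Targets of SRF and its cofactor MRTF (20 genes) gave no call. At an unadjusted p under 0.05 there were 3, 0 and 4, beside 11.7%, 13.2% and 18.4% of all genes. Their medians were -0.13, -0.05 and 0.23, the last 2 being -0.06 and 0.31 without the first irradiated library. DESeq2 called Acta2 and Fos in drug tumors against vehicle and Acta2 in irradiated against drug tumors. It called 4.02% of all genes it tested in each of these comparisons. Acta2, smooth muscle actin, had 13.8, 7.54 and 9.20 CPM in vehicle, 28.7, 27.2 and 27.4 CPM in drug and 14.2, 7.96 and 9.58 CPM in irradiated tumors. The drug tumors were above all others (1.45 ± 0.30 against vehicle, edgeR adjusted p = 0.0763). Fos, an immediate early gene, was lowest in drug tumors, with 14.8, 15.1 and 13.8 CPM against 25.3, 42.9 and 39.2 in vehicle (-1.30 ± 0.29, adjusted p = 0.0932).

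Of the targets of YAP/TAZ with the LATS kinases, 22 of 24 were tested, and edgeR called 2 for drug against vehicle, 1 in each direction, beside 0.678% of all genes (0.389% higher and 0.289% lower). Nt5e, the ectoenzyme CD73, rose from 4.97, 3.05 and 2.85 to 27.2, 10.5 and 20.3 CPM (2.41 ± 0.39, adjusted p = 0.0383), and had 13.2, 15.3 and 12.5 CPM in irradiated tumors. Cyr61, a matrix protein and a classical YAP target, fell from 35.5, 40.3 and 45.6 to 16.4, 13.7 and 13.9 CPM (-1.47 ± 0.20, adjusted p = 0.0375), with 20.4, 20.3 and 16.4 CPM in irradiated tumors. Each treated group lay apart from vehicle for both genes. Neither was called without drug replicate 1 or 3 or vehicle replicate 2 or 3, nor Cyr61 without drug replicate 2, with adjusted p up to 0.217. In irradiated tumors against vehicle, edgeR called neither (adjusted p = 0.127 and 0.0961), and Cyr61 passed without the first irradiated library (0.0473). DESeq2 called both there, beside 3.16% of all genes it tested. In each comparison 3 of the 22 genes had an unadjusted p under 0.05, beside 11.7%, 13.2% and 18.4% of all genes. The list's medians were 0.07, -0.28 and -0.25, and without the first irradiated library the last 2 shrank to -0.04 and -0.06.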

How the data were processed

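Per the paper's methods and the submitters' processing notes, the authors aligned polyA-selected reads to mm10 with STAR 2.6.1d and quantified them with Salmon 1.4.0. The deposited table holds estimated counts per gene symbol, as whole numbers and not normalized. The labels name whole tumor as the tissue but macrophages in the extraction text, and a paired-end run where the methods give single reads. Strandedness was not given in the sources used here.

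Counts were filtered with filterByExpr (minimum count 10) and tested in edgeR 4.0.16 (R 4.3.3) by the robust quasi-likelihood F test after TMM normalization, with all 9 libraries in 1 fit and 1 coefficient per group. Calls were made at a Benjamini-Hochberg adjusted p under 0.05 over 15931 genes. Tests were two-sided. CPM used the TMM-scaled totals of all symbols. Identifiers, coordinates and lengths are from GENCODE M21 (GRCm38), promoter sequences from RefSeq (GRCm38.p6), which held none for Limd1 and Pxn here. Replicates of a group differed by more than sampling noise. Floors and counts cover counting error only. Scripts were tested on simulated data.

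The members and lists were chosen with earlier results of these data known. Named were the 9 members, and from each list called genes, the 2 highest and 2 lowest log2 fold changes per comparison among genes of at least 10 CPM on average, and a fixed set of LIM proteins, adhesion adaptors and partners. The 10 genes most like Tes by Pearson r and the protein-coding genes within 1 Mb were also named. Only part of these are given with values. Alternatives were DESeq2 1.42.0, RLE normalization, no low-count filter, the 6 libraries compared, a replicate block, leaving out each library and, for shares, the longest transcript. DESeq2 without irradiated replicate 1 was added after the data were seen. Some single markers of the neuroblast list are not reported here.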

Additional observations from a re-analysis of the deposited data

How the results depend on the processing

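Leaving aside Tes where it was chosen on the contrast, the 9 genes stayed uncalled under every alternative run except in 2 cases. With DESeq2, 1 member (Tes) was called for drug against vehicle (log2 fold change 1.11), and with DESeq2 without irradiated replicate 1, chosen after the data were seen, 1 member (Pxn) was called for irradiated against drug tumors (0.56). Both groups behind the Tes call also entered the comparisons on which Tes was chosen. Members called were 0 whichever single library was left out. Numbers of all genes called depended on the setting. For drug against vehicle, irradiated against vehicle and irradiated against drug tumors they were 108, 7 and 1, and 726, 554 and 644 with DESeq2, 199, 70 and 24 with no low-count filter, and 594, 1 and 0 with the 6 libraries compared. DESeq2 without irradiated replicate 1 gave 828 and 665 in the last 2. Leaving out each library gave 0 to 75, 1 to 57 and 0 to 21. Genes called over the lists, of 115, were 2, 0 and 0, and 7, 3 and 2 with DESeq2. The shares of all genes were 0.678%, 0.0439% and 0.00628%, and 4.02%, 3.16% and 4.02% with DESeq2. List genes called were 7 of 114 for drug against vehicle with 6 libraries and 1 for irradiated against vehicle with no filter. DESeq2 without irradiated replicate 1 gave 9 and 8 in the last 2 comparisons. Leaving out each library gave 0 to 2, 0 to 1 and 0 to 0 list genes. The cause was not tested.

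Same-numbered libraries did not deviate together (r from -0.05 to 0.23), so the labels' numbers were not taken as pairs. With the replicate block, 0, 3 and 0 genes were called, 0 of the list genes for drug against vehicle, and the log2 fold change of Zyx turned to -0.0255 and -0.0085 in the comparisons with irradiated tumors.

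Over the genes named with values, 811 values kept direction and side of the threshold, 36 gained and 43 lost a call, the latter all of Cav2, Cav1, Met, Nt5e or Cyr61, and 38 reversed. Reversals fell on log2 fold changes close to 0 or resting on 1 library. For drug against vehicle, Zyx was 0.0109 with DESeq2, 0.0136 with RLE, 0.0172 with no filter and 0.0292 with 6 libraries, and -0.1731 to 0.0665 leaving out each library, over which Evl ran from -0.27 to 0.27. For irradiated against vehicle, Pxn was 0.0146 with DESeq2, 0.0202 with RLE, 0.0093 with no filter and 0.0070 with 6 libraries. Leaving out each library gave -0.22 to 0.36 for Pxn, -0.22 to 0.31 for Zyx, -0.0876 to 0.0428 for Limd1, -0.26 to 0.0422 for Capza2 and -0.0735 to 0.36 for St7. DESeq2 without irradiated replicate 1 gave 0.34 for Pxn, 0.0157 for Limd1, 0.0212 for Capza2 and -0.0926 for St7. For irradiated against drug tumors, leaving out each library gave -0.20 to 0.30 for Zyx, -0.47 to 0.26 for Lpp, -0.23 to 0.26 for Enah and -0.56 to 0.79 for Tfec, Enah was 0.0063 with 6 libraries, and DESeq2 without irradiated replicate 1 gave 0.25 for Lpp and 0.24 for Enah. Shares whose groups did not overlap numbered 4 to 8, 0 to 4 and 0 to 3 leaving out each library. Of the 10 genes most like Tes, 0 were among the first 10 in the 6 libraries that were not irradiated, where Lce1m and Rhcg could not be ranked.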
